A study of Arabidopsis thaliana with 32 samples.

Results

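Monosome RNA of the *mcu* sextuple mutant was compared with monosome RNA of the wild type in *Arabidopsis thaliana*. The comparison rests on 6 libraries of the 32 in the series: sextuple replicates 1, 2 and 3 and wild-type (Col) replicates 1, 2 and 4, which lie together in one deposited table. Of 24614 genes listed there, 19892 reached a value of 10 in 3 libraries or more and were tested. All seedlings were in the Col-0 accession, were 10 days old and were collected whole from vertical plates of half-strength MS medium with sucrose. The sextuple line carries T-DNA insertions in *MCU1*, *MCU2*, *MCU3*, *MCU4* and *MCU6* and a CRISPR/Cas9-edited *MCU5*. It was built by crossing single mutants and is described by the study as a knockdown, so RNA of several family members can still be made. The wild type carried none of these alleles. Nothing in the labels says that replicates came from separate cultures, so the p-values measure only the spread between these libraries.

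MCU proteins are the pore of the calcium uniporter, which lets calcium pass the inner mitochondrial membrane into the matrix along the membrane potential. MICU is an EF-hand protein that senses calcium in the space between the mitochondrial membranes and gates the pore. On a sucrose gradient, ribosomes separate by how many of them share an mRNA. The monosome fraction holds mRNAs with a single ribosome together with free ribosomes, and the polysome fraction holds mRNAs with several. A level in monosome RNA therefore reflects how much of an mRNA there is as well as how it is loaded with ribosomes, and in whole seedlings fewer cells of a type and less RNA per cell cannot be told apart.

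The alleles were typed by the study with primer pairs along the *MCU* genes. They are printed to show where each gene was probed. Each of the 12 primers matched the TAIR10.1 reference once (all letters in lower case, 5′ to 3′).
MCU1 primer 1: gaggatgaagaggagaagaagaa
MCU1 primer 2: gtgattggttccatcacatcc
MCU2 primer 1: caaagacctaaccggagaagc
MCU2 primer 2: cctagcagctgtgattcgaac
MCU3 primer 1: cattttggagttcgattttcg
MCU3 primer 2: caagcatcttcgcgattttag
MCU4 primer 1: tgtcaggtcccaaaacgttag
MCU4 primer 2: taaatctatccacgtggacgg
MCU5 primer 1: tgtagtgaaactgacacgtgttc
MCU5 primer 2: atagagtagccaaggagaggatg
MCU6 primer 1: cgaactgtattctccgcagac
MCU6 primer 2: acggtcatcaccatttaggtg

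On the reference the *MCU1* pair spans chr1:3102119-3102712, with both primers in coding exons. The *MCU2* pair spans chr1:21338335-21339492 and the *MCU3* pair chr2:10126960-10128163. In both, one primer lies in a coding exon and the other upstream of the annotated gene, by 438 bases for *MCU2* and 554 bases for *MCU3*. The *MCU4* pair spans chr4:17346617-17347745 and also runs from upstream, 168 bases before the gene, into a coding exon. The *MCU5* pair spans chr5:17062220-17063964, from 213 bases before the gene to an untranslated exon. The *MCU6* pair spans chr5:26603820-26604989, from an untranslated exon to a coding exon.

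The targeted genes were examined first. Values are gene signals that the authors had adjusted for library size, with no unit. *MCU6* had 148, 246 and 180 in the sextuple mutant, against 319, 489 and 358 in the wild type, a log2 change of -1.03 ± 0.24 (SE; limma adjusted p = 0.23). *MCU3* had 608, 540 and 683 in the sextuple mutant and 832, 999 and 909 in the wild type, a log2 change of -0.58 ± 0.17 (adjusted p = 0.413). For both genes every sextuple library lay below every wild-type library, but neither passed adjustment over all genes.

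*MCU2* had 211, 153 and 190 in the sextuple mutant, against 333, 210 and 314 in the wild type, and its groups overlapped narrowly (log2 change -0.61, adjusted p = 0.782). *MCU1* had 197, 139 and 141 in the sextuple mutant and 298, 237 and 191 in the wild type, with an overlap of the same kind (log2 change -0.60, adjusted p = 0.826). *MICU*, which is not targeted in this line, had 7129, 8149 and 6443 in the sextuple mutant, against 8486, 8517 and 7475 in the wild type (log2 change -0.18, adjusted p = 0.953). Of the 5 genes of the family and *MICU* that were tested, 0 were called. Before adjustment 4 were lower (p under 0.05), beside 5.60% of all genes tested.

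The remaining pair was too low to be tested. *MCU4* had 4.62, 6.27 and 22.9 in the sextuple mutant and 1.89, 28.7 and 5.75 in the wild type, so its groups overlapped fully. *MCU5* was listed at 0 in all sextuple libraries, against 13.6, 16.4 and 7.69 in the wild type. In polysome RNA *MCU5* had 6.42, 6.92 and 8.03 in the sextuple mutant and 0.00442, 8.99 and 9.88 in the wild type. An edited gene can still be transcribed, so the level of *MCU5* does not test its allele. The fourth wild-type monosome library, replicate 3, is held in another table and was not in the fit. Brought to the same scale, it had 242 for *MCU1*, 240 for *MCU2*, 785 for *MCU3* and 397 for *MCU6*, each above the sextuple range, and 2.19 for *MCU5*.

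**Figure D1:**
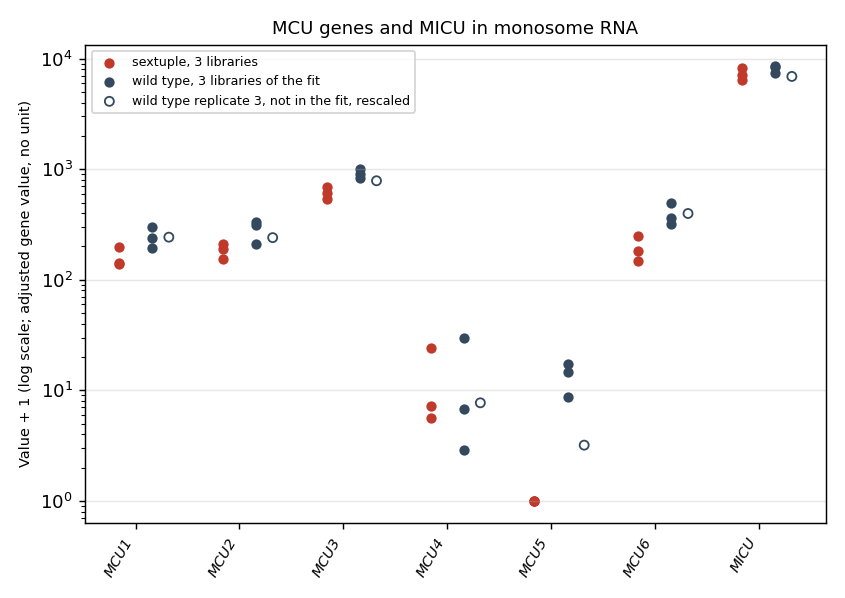
Adjusted gene value + 1 on a log axis (no unit) for *MCU1* to *MCU6* and *MICU* in monosome RNA. Each point is a library: sextuple left, wild type right, and open circles the wild-type replicate 3 that was not in the fit. *MCU3* and *MCU6* do not overlap between the groups of the fit, *MCU5* is at 0 in all sextuple libraries, and *MCU4* overlaps.

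Across the 6 libraries, the summed values were 27.7, 35.4 and 21.4 in the sextuple mutant and 26, 28.9 and 26.2 in the wild type, in units of 1000000. The depth in reads is unknown. A single nuclear-encoded RNA that the annotation classes as miscellaneous, AT3G06365, took 12.3% to 37.9% of the values in the sextuple libraries and 20.9% to 30.8% in the wild-type libraries. Annotated ribosomal RNA took 5.39% to 16.1% in the sextuple mutant and 8.85% to 12.5% in the wild type (exact permutation p = 0.8, two-sided; the smallest p that 3 libraries against 3 allow is 0.1). That share and its test count only genes annotated as ribosomal RNA and leave out AT3G06365. Both shares were highest in sextuple replicate 2 and lowest in sextuple replicate 3. Whether AT3G06365 is itself of ribosomal origin was not examined. Sextuple replicate 3 stood apart on the first principal component, which held 28.6% of the variance, and had the lowest share of ribosomal RNA. Summed values of 14 root marker genes were 14717, 14991 and 14855 in the sextuple mutant, all below the 17050, 18599 and 16812 of the wild type, whereas the sums of 12 shoot marker genes overlapped (1727120 to 2278760 in the sextuple mutant and 1841890 to 2463480 in the wild type). The ratio of root to shoot sums overlapped too, at 0.681%, 0.868% and 0.652% in the sextuple mutant, against 0.830%, 1.01% and 0.682% in the wild type. Of 13 root markers tested, 5 had a log2 change above 0, and their median of -0.14 was 0.11 without wild-type replicate 2. The part of these differences in the results below was not tested.

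Few genes changed. At an adjusted p under 0.05, 10 genes were higher and 10 lower in the sextuple mutant, 0.101% of those tested. At an unadjusted p under 0.05 there were 1113 (5.60%), of which 491 were higher and 622 lower. Groups did not overlap for 2135 genes (10.7%). The log2 change was above 0 for 47.3% of all genes tested. Its median over all genes was -0.02, and the median standard error was 0.25.

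The largest rise in absolute level among the called genes was of *SADHU3-2* (AT3G42658), a pseudogene of the Sadhu retroposons, whose members are known to differ between accessions in silencing and DNA methylation. It had 3252, 2560 and 4029 in the sextuple mutant, against 107, 110 and 139 in the wild type, a log2 change of 4.76 ± 0.19 (SE; limma adjusted p = 1.6e-11), or 27.1-fold. The lowest sextuple library was far above the highest wild-type library. The element lies at chr3:14749400-14750294, on a chromosome with no *MCU* gene.

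*QQS* (qua-quine starch, AT3G30720), an orphan gene found only in Arabidopsis that is known to shift carbon between starch and protein, also rose. It had 429, 673 and 388 in the sextuple mutant and 25.2, 93.9 and 29.9 in the wild type (log2 change 3.51 ± 0.39, adjusted p = 0.000121). Wild-type replicate 2 was the highest of its group and still well below the mutant. The same transcript had 320, 170 and 212 after rescaling in *2OX*, the *MCU2*-overexpressing line of the series, which was not part of the test.

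AT2G04735 is a long non-coding RNA with no assigned role. It had 150, 76.7 and 177 in the sextuple mutant, against 0, 4.47 and 0 in the wild type (log2 change 6.18 ± 0.84 on the log2(value + 1) scale, adjusted p = 0.00145). It was listed at 0 in all 3 *2OX* monosome libraries too, and in wild-type replicate 3. AT5G35760, annotated as a protein related to beta-galactosidases, had 220, 294 and 200 in the sextuple mutant and 41.9, 8.74 and 26.1 in the wild type (log2 change 3.39 ± 0.46, adjusted p = 0.00145).

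Regulators of development were among the genes that rose. *LBD26*, a transcription factor of the LOB domain family, which shapes organ boundaries and lateral organs, had 617, 738 and 711 in the sextuple mutant, against 96.3, 110 and 103 in the wild type (log2 change 2.72 ± 0.21, adjusted p = 5.08e-07). The libraries of each group lay close together. *HB-2*, the homeodomain-leucine zipper factor ATHB2 that is induced in shade and promotes elongation, had 4643, 4762 and 4640 in the sextuple mutant and 2498, 1820 and 2646 in the wild type (log2 change 1.03 ± 0.15, adjusted p = 0.00378). In *2OX*, *HB-2* had 1642, 1334 and 1438, below every wild-type library.

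Genes of the cell wall, a cytochrome P450 and an actin-related protein rose as well. *GER3*, a germin of the cell wall whose transcript is known to cycle daily, had 1838, 2658 and 1419 in the sextuple mutant, against 825, 691 and 916 in the wild type (log2 change 1.24 ± 0.19, adjusted p = 0.00767). *PRP4*, a proline-rich structural protein of the cell wall, had 3357, 3319 and 2664 in the sextuple mutant and 2007, 1546 and 1622 in the wild type (log2 change 0.85 ± 0.15, adjusted p = 0.0251). *PRP4* was the one called gene for which the wild-type library outside the fit, at 2757, fell inside the sextuple range. For *GER3* that library had 1368, above the wild-type libraries of the fit and close below the lowest sextuple library. In *2OX*, after rescaling, *GER3* had 854, 4058 and 1226 and *PRP4* had 1670, 3750 and 1438. Replicate 2 of *2OX* was thus above every sextuple library for both genes. *CYP72A9*, a cytochrome P450 that hydroxylates gibberellins, had 82.3, 161 and 66.0 in the sextuple mutant, against 6.76, 21 and 13.5 in the wild type (log2 change 2.84 ± 0.54, adjusted p = 0.0488). *ARP9*, an actin-related protein, had 627, 567 and 483 in the sextuple mutant and 226, 297 and 202 in the wild type (log2 change 1.22 ± 0.21, adjusted p = 0.0157).

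The strongest fall was of AT4G33500, a protein phosphatase of the 2C family, a family that includes the negative regulators of abscisic acid signalling. It had 2.14, 0.0477 and 0 in the sextuple mutant, against 667, 678 and 511 in the wild type (log2 change -8.69 ± 0.57, adjusted p = 5.62e-08). In polysome RNA it had 25.3, 10.5 and 5.80 in the sextuple mutant and 1155, 1011 and 1004 in the wild type, so it was low in both fractions of the mutant. The size of the fold change depends on the constant added before the logarithm, since the sextuple values are near 0. The gene overlaps *DHS2* on the other strand, which had 1435, 1091 and 1137 in the sextuple mutant, against 1329, 1048 and 1162 in the wild type (log2 change 0.05, adjusted p = 0.989). AT4G33500 lies at chr4:16112624-16116383, 1.23 Mb and 433 genes from *MCU4*.

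Genes of sugar, hormone and lipid signalling fell as well. *TPPG*, a trehalose-6-phosphate phosphatase, an enzyme that removes the sugar signal trehalose-6-phosphate, had 48.7, 15.4 and 51.7 in the sextuple mutant, against 195, 222 and 181 in the wild type (log2 change -2.51 ± 0.41, adjusted p = 0.0125). *PYL6*, an abscisic acid receptor, had 301, 169 and 250 in the sextuple mutant and 504, 647 and 589 in the wild type (log2 change -1.30 ± 0.22, adjusted p = 0.0157). AT5G24240, annotated as similar to phosphatidylinositol 4-kinase gamma, had 35.6, 37.2 and 40.9 in the sextuple mutant, against 223, 204 and 191 in the wild type (log2 change -2.41 ± 0.31, adjusted p = 0.00112). This gene was also low in *2OX*, at 24.2, 46.3 and 80.8. *UMAMIT33*, of a family of amino acid transporters, had 339, 363 and 408 in the sextuple mutant and 578, 1069 and 808 in the wild type (log2 change -1.10 ± 0.21, adjusted p = 0.043).

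The other genes that fell have no assigned role, and 3 of them are non-coding RNAs. AT4G04223, a non-coding RNA, had 199, 274 and 292 in the sextuple mutant, against 1339, 1191 and 1732 in the wild type (log2 change -2.47 ± 0.20, adjusted p = 6.12e-07), and 666, 730 and 591 in *2OX*. The non-coding AT5G38005 had 144, 134 and 110 in the sextuple mutant and 352, 310 and 355 in the wild type (log2 change -1.39, adjusted p = 0.014), and 159, 260 and 243 in *2OX*. For both RNAs every *2OX* library also lay below the wild-type libraries of the fit, though the scales were set across tables and no test was made.

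The non-coding AT3G54366 had 739, 844 and 924 in the sextuple mutant, against 1413, 1383 and 1872 in the wild type (log2 change -0.89, adjusted p = 0.0361). The protein-coding AT5G26270 had 63.5, 133 and 152 in the sextuple mutant and 520, 385 and 395 in the wild type (log2 change -1.97, adjusted p = 0.00378). AT2G04800, also protein-coding, had 139, 116 and 141 in the sextuple mutant, against 291, 363 and 365 in the wild type (log2 change -1.35, adjusted p = 0.0157). None of these genes overlapped between the groups.

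**Figure D2:**
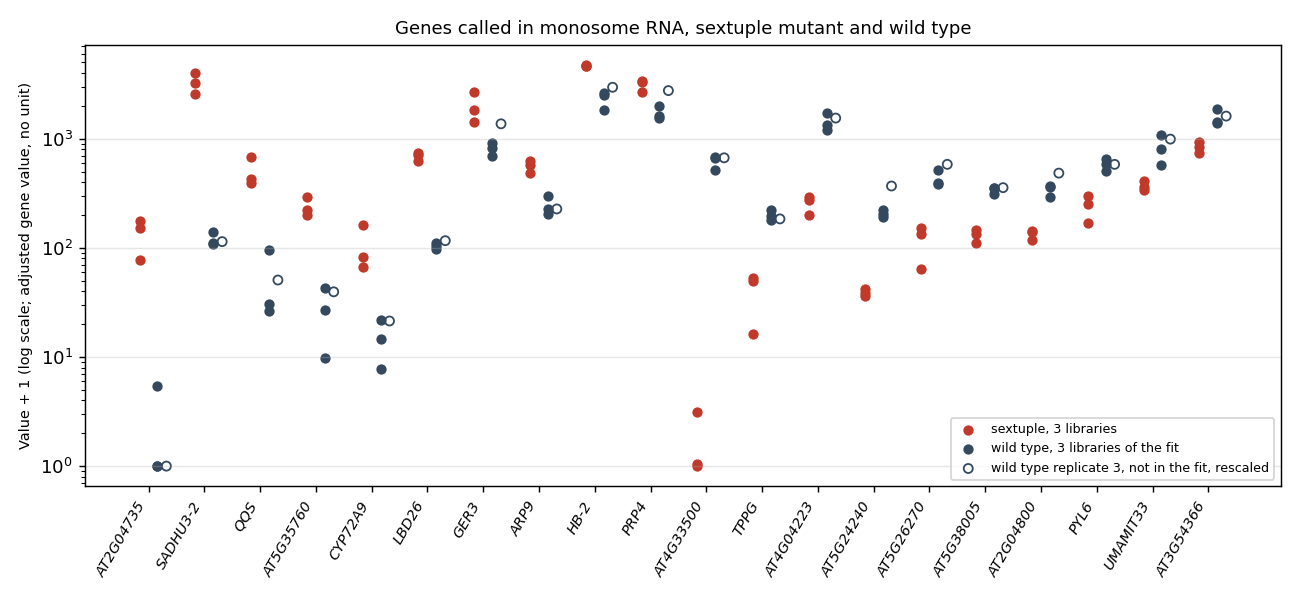
Adjusted gene value + 1 on a log axis (no unit) for the 20 called genes in monosome RNA, ordered by log2 change, with sextuple libraries on the left and wild-type libraries on the right of each gene. Open circles are wild-type replicate 3, which was not in the fit. No gene overlaps between the 3 libraries of each group that were fitted, and for *PRP4* the open circle falls inside the sextuple range.

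Wild-type replicate 3 gave a check on libraries that the fit did not use. For 19 of the 20 called genes it lay outside the sextuple range on the side of the wild type, within the range of the other wild-type libraries for 13 of them. Among the 1113 genes at an unadjusted p under 0.05 the same was true of 882 (79.2%).

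Of the called genes, 8 kept their call in every fit without 1 library in which they were tested: *SADHU3-2*, AT4G33500, *LBD26*, AT4G04223, *QQS*, AT5G24240, AT5G35760 and AT2G04735. AT4G33500 and AT2G04735 passed the value filter only through the group where they were high. They fell below it in the 3 fits that left out a library of that group, so those fits could not test them. In a fit with no variance trend, 4 of these 8 lost the call: AT4G04223 (adjusted p = 0.0522), AT2G04735 (0.103), *QQS* (0.215) and AT5G35760 (0.245). The other 12 lost the call without at least 1 library. AT5G26270 lost it without wild-type replicate 1 (adjusted p = 0.0512) and *HB-2* without sextuple replicate 1 (adjusted p = 0.0525). *GER3* lost it without wild-type replicate 2 or sextuple replicate 1 (adjusted p up to 0.0734). *TPPG* and AT5G38005 lost it without any 1 of the wild-type libraries (up to 0.125 and 0.118). *PYL6* lost it without wild-type replicate 2 or 4 or sextuple replicate 2 (up to 0.153). AT2G04800 and *PRP4* lost it without wild-type replicate 2 or 4 or sextuple replicate 1 or 2 (up to 0.153 and 0.29), and *ARP9* and *CYP72A9* without wild-type replicate 1 or 4 or sextuple replicate 1 or 2 (up to 0.248 and 0.316). AT3G54366 lost it without any 1 library other than sextuple replicate 3 (up to 0.319), and *UMAMIT33* without any 1 other than wild-type replicate 1 (up to 0.391).

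Just outside the threshold stood AT1G09640, the gamma chain of translation elongation factor EF1B, with 3346, 3144 and 3981 in the sextuple mutant and 1810, 2029 and 2310 in the wild type (log2 change 0.77, adjusted p = 0.0501). It lies 16.1 kb and 9 genes from *MCU1*, and it passed the threshold in polysome RNA (log2 change 0.76, adjusted p = 0.00966). The next were AT1G49032 (log2 change -0.83, adjusted p = 0.0588), the non-coding AT3G06125 (-0.90, 0.0688), AT5G15360 (-4.00, 0.0918) and the beta-galactosidase gene *BGAL4* (-0.93, 0.0918). AT5G15360 had 0.141, 6.08 and 19.0 in the sextuple mutant, against 71.9, 104 and 85.0 in the wild type.

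By position, 15 of the 20 called genes lie on a chromosome that carries an *MCU* gene, as do 80.1% of all tested genes placed on the annotation. Of the 20, 2 lie within 1 Mb of one, beside 11.5% of all tested genes (*ARP9*, 405.4 kb from *MCU5*, and *PRP4*, 748.3 kb from *MCU4*). A further 2 lie within 2 Mb (AT4G33500 and AT5G38005), which makes 4, beside 21.6% of all tested genes. A line made by crossing can carry linked segments around each allele, so genes near the *MCU* genes were listed on their own; the part of linkage was not tested. Of 60 neighbours, 34 were tested and 0 called, with 6 higher and 1 lower before adjustment (p under 0.05), against 5.60% of all genes. The 2 with the smallest p were AT4G36850, a PQ-loop membrane protein near *MCU4*, and *MRN1*, the marneral synthase near *MCU5*. AT4G36850 had 1365, 1400 and 1925 in the sextuple mutant and 2519, 2798 and 2325 in the wild type (log2 change -0.72, adjusted p = 0.143). *MRN1* had 273, 280 and 227 in the sextuple mutant, against 172, 113 and 161 in the wild type (log2 change 0.82, adjusted p = 0.494). *CYP71A16*, which acts after *MRN1* in marneral metabolism and lies beside it, had 148, 168 and 155 in the sextuple mutant and 84.6, 141 and 78.2 in the wild type (log2 change 0.68, adjusted p = 0.857).

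Polysome RNA of the same genotypes was used to see whether the called genes were particular to the monosome fraction. All 20 had the same sign there and 15 were called in the separate polysome fit, which called 30 of 20110 genes. *SADHU3-2* had a log2 change of 4.76 in monosome and 4.73 in polysome RNA, *LBD26* 2.72 and 2.63, and *TPPG* -2.51 and -2.24. The 5 not called in polysome RNA were *HB-2* (0.67 there), *PRP4* (0.67), AT3G54366 (-0.74), *UMAMIT33* (-1.14) and *CYP72A9* (1.02). The labels do not say whether monosome and polysome libraries with the same number came from one extract, so the fractions may share seedlings.

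The difference of the changes between the fractions was itself tested. In one limma model over 12 libraries, 0 of 19492 genes passed adjustment (smallest adjusted p = 0.0854), and 645 had an unadjusted p under 0.05. That model took the libraries as independent. With a random replicate block within genotype, 1 gene passed. Among the called genes the difference, monosome minus polysome, was largest for AT4G33500 (-2.32, limma adjusted p = 1) and *CYP72A9* (1.82, limma adjusted p = 1). For AT4G33500 its size depends on the constant added before the logarithm, since the sextuple monosome values are near 0. *CYP72A9* had 45.8, 28.0 and 54.1 in sextuple polysome RNA, against 17.1, 32.6 and 13.8 in the wild type, where the groups overlapped.

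**Figure D3:**
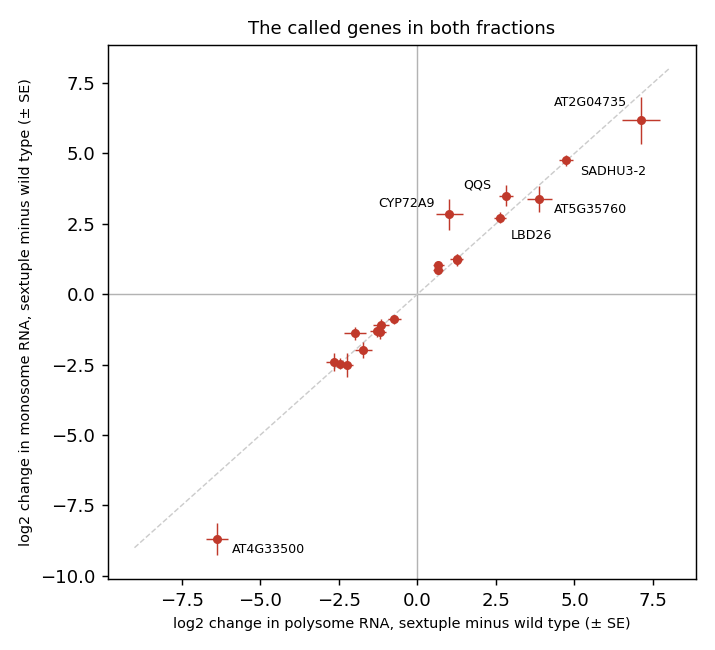
Log2 change of the 20 called genes in monosome RNA (vertical axis) against polysome RNA (horizontal axis), sextuple minus wild type, with standard errors as bars. All points lie in the lower left or the upper right part of the plot. The dashed line marks equal change, and *CYP72A9* lies farthest above it among the genes that rose.

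The circadian clock of plants is a loop of transcription factors that repress each other in turn through the day. *CCA1*, *LHY* and the *RVE* genes, which encode related MYB factors, and their *LNK* partners are expressed around dawn, the *PRR* genes follow one after another through the day, and *TOC1*, *ELF3*, *ELF4* and *LUX* act in the evening. All 24 clock genes on the list were tested. None passed adjustment, and 12 had an unadjusted p under 0.05, 8 lower and 4 higher, beside 5.60% of all genes. The median log2 change of the list was -0.20. It ran from -0.29 to -0.09 in the fits without 1 library and was -0.14 with a filter at a value of 50. The sources used here give no time of day for the collection of each genotype, so the part of harvest time was not tested.

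Several dawn genes had lower values. *CCA1* had 51.2, 109 and 60.2 in the sextuple mutant, against 271, 124 and 118 in the wild type (log2 change -1.17 ± 0.37, limma adjusted p = 0.563). *LNK3* had 18.1, 55.3 and 65.5 in the sextuple mutant and 164, 127 and 126 in the wild type (log2 change -1.74 ± 0.43, adjusted p = 0.254). *RVE1*, which ties the clock to auxin, had 175, 156 and 115 in the sextuple mutant, against 362, 317 and 233 in the wild type (log2 change -1.02 ± 0.25, adjusted p = 0.254). The groups did not overlap for these 3 genes, although *CCA1* came close, with 109 in sextuple replicate 2 and 118 in wild-type replicate 4.

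*RVE4* had 953, 921 and 1204 in the sextuple mutant and 1424, 1713 and 1678 in the wild type (log2 change -0.65 ± 0.16, adjusted p = 0.253). *LNK4* had 768, 890 and 1097 in the sextuple mutant, against 1186, 1475 and 1490 in the wild type (log2 change -0.60, adjusted p = 0.391). *LNK2* had 1127, 1792 and 1519 in the sextuple mutant and 3493, 3105 and 1747 in the wild type, with an overlap at 1 library (log2 change -0.88, adjusted p = 0.254). *RVE8* (log2 change -0.95) and *PRR5* (-0.34) overlapped as well. *LHY*, the closest relative of *CCA1*, had 51.1, 45.9 and 54.5 in the sextuple mutant, against 95.3, 79.5 and 77.3 in the wild type, with no overlap (log2 change -0.72, adjusted p = 0.909).

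Some evening genes had higher values. *ELF4* had 492, 531 and 380 in the sextuple mutant, against 210, 290 and 264 in the wild type (log2 change 0.87 ± 0.21, adjusted p = 0.253), the smallest p of the list. Its partners in the evening complex were also higher. *ELF3* had 1058, 1219 and 1074 in the sextuple mutant and 808, 890 and 777 in the wild type (log2 change 0.44, adjusted p = 0.68), and *LUX* had 1886, 1488 and 1396 in the sextuple mutant, against 931.7, 1007 and 1472 in the wild type (log2 change 0.50, adjusted p = 0.687). *PRR3*, which stabilises the TOC1 protein, had 522, 532 and 366 in the sextuple mutant and 180, 322 and 256 in the wild type (log2 change 0.92, adjusted p = 0.277). *TOC1* overlapped, with 1394, 1558 and 938 in the sextuple mutant, against 923, 1152 and 934 in the wild type (log2 change 0.35, adjusted p = 0.912).

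The pattern was not uniform within a phase. *LNK1* had 94.6, 255 and 93.1 in the sextuple mutant and 366, 90.6 and 89.7 in the wild type, with 1 high library in each group. *PRR9*, *RVE6* and *ZTL* had log2 changes of -0.25, -0.07 and 0.03. *LHY*, *TOC1*, *PRR9*, *PRR7*, *RVE2*, *RVE7* and *FKF1* were all at an unadjusted p over 0.05. In polysome RNA the 12 genes all had the same sign, and 9 had an unadjusted p under 0.05 there too. Wild-type replicate 3 lay on the wild-type side of the sextuple range for all 12, beside 79.2% of all genes at that p in monosome RNA.

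**Figure D4:**
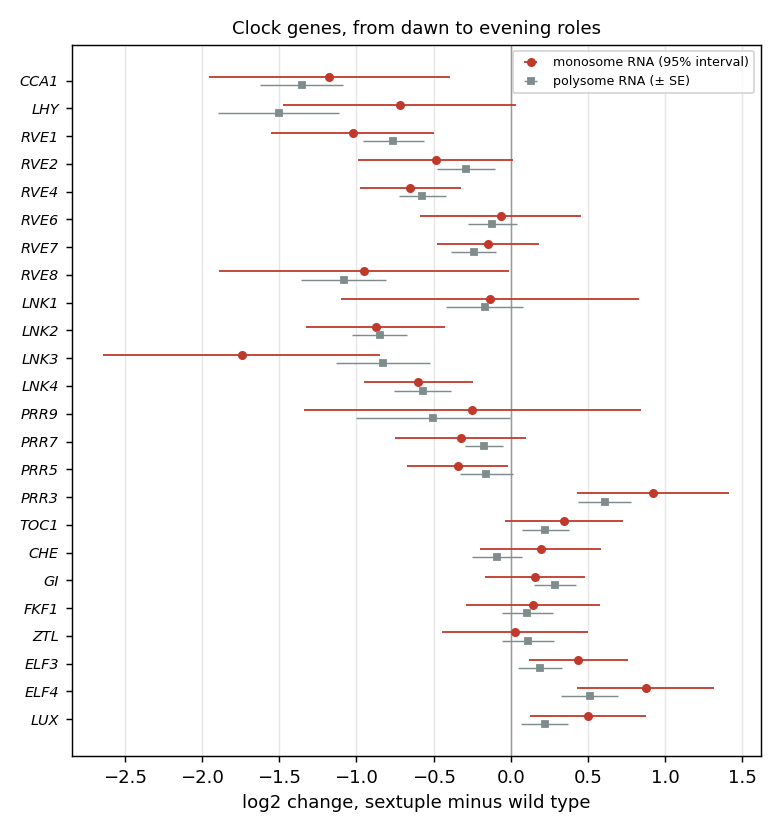
Log2 change, sextuple minus wild type, of 24 clock genes in monosome RNA (circles, with 95% intervals) and polysome RNA (squares, with standard errors), ordered by their role from dawn at the top to evening at the bottom. Changes below 0 gather in the upper rows, down to -1.74 for *LNK3*, and *PRR3*, *ELF4*, *LUX* and *ELF3* lie above 0.

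Sequence upstream of the clock genes was read for a pair of motifs. The G-box is bound by bHLH and bZIP factors, among them the phytochrome-interacting factors, and the evening element is bound by CCA1, LHY and the RVE proteins. In the 250 bases before the annotated gene start, on either strand, the G-box (CACGTG) was found in 8 of 24 clock genes, against 6.49% of 27443 promoters of the TAIR10.1 annotation (7.33% of those of tested genes). It was in 3 of the 8 lower genes (*CCA1*, *RVE1*, *LNK3*) and in 1 of the 4 higher genes (*LUX*). Stretches around it are shown for the 3 lower genes and for *LHY*, with 1 copy of the motif in capitals. *LNK3* holds another copy, in lower case at the end of its stretch.
CCA1, chr2:19245368-19245433, plus strand: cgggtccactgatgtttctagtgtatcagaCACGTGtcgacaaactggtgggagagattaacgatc
RVE1, chr5:5693068-5693133, minus strand: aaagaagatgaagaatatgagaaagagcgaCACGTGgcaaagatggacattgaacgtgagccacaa
LNK3, chr3:3923314-3923379, plus strand: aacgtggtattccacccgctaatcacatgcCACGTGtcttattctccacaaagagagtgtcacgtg
LHY, chr1:37916-37981, minus strand: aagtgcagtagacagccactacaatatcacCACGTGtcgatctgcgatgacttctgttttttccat

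The evening element (AAAATATCT, either strand) was found in 5 of 24 clock genes, against 2.36% of all promoters. Of these *LUX* was among the higher genes and *PRR5* among the lower, and *TOC1*, *RVE7* and *FKF1* were at an unadjusted p over 0.05. It is shown for the evening genes *LUX* and *TOC1*, read in the direction of the gene, with the motif in capitals.
LUX, chr3:17182959-17183027, plus strand: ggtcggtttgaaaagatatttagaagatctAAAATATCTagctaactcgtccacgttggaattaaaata
TOC1, chr5:24674782-24674850, plus strand: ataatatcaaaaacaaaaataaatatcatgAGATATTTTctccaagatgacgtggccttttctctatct
The matches describe letters in these windows and not bound sites. *LUX* holds both motifs, and both motifs occurred among higher and among lower clock genes.

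The iron list holds the uptake system of the root epidermis and the ferritins that store iron in plastids. Of 17 genes 12 were tested and 0 called, with 2 lower and 3 higher at an unadjusted p under 0.05, beside 5.60% of all genes. The lower ones were *IRT1* and *BHLH101*, both near the value filter. *IRT1*, the iron transporter of the root surface, had 0.043, 7.46 and 0 in the sextuple mutant, against 37.9, 53.0 and 22.2 in the wild type (log2 change -4.14 ± 1.09, adjusted p = 0.302). All sextuple values of *IRT1* are under 10, so it was tested only through its wild-type values, and the size of its change depends on the constant added before the logarithm. *FRO2*, the ferric reductase that works with it, was listed at 0 in all sextuple libraries and had 5.80, 21.9 and 3.81 in the wild type, too low to be tested. *BHLH101*, a transcription factor of the iron response, had 16.4, 11.2 and 1.43 in the sextuple mutant and 43.8, 26.2 and 18.3 in the wild type (log2 change -1.84, adjusted p = 0.881). *FIT*, the master regulator of uptake, had 175, 186 and 185 in the sextuple mutant, against 217, 262 and 193 in the wild type (log2 change -0.29, adjusted p = 0.954).

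The higher ones were the ferritins. *FER1* had 7918, 7027 and 9231 in the sextuple mutant, against 5478, 6995 and 4761 in the wild type (log2 change 0.50, adjusted p = 0.574). *FER4* had a log2 change of 0.45 and *FER3* of 0.36. Wild-type replicate 3 lay on the wild-type side for all 5 genes at an unadjusted p under 0.05, beside 79.2% of all genes at that p. The summed root markers, which include *IRT1* and *FRO2*, were also lower in the mutant libraries, although the ratio of root to shoot markers overlapped (above), and the part of root content was not tested.

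Genes of osmotic stress and abscisic acid mostly had higher values. Of 18 tested, 0 were called. Before adjustment 7 were higher and 1 lower (p under 0.05), beside 5.60% of all genes. The median log2 change was 0.22 (0.36 without wild-type replicate 1), beside -0.02 over all genes. *COR414-TM1*, a chloroplast membrane protein induced by cold, had 2677, 3093 and 2038 in the sextuple mutant, against 1329, 1349 and 1828 in the wild type (log2 change 0.79, adjusted p = 0.14). *KIN2* had 2801, 3877 and 2400 in the sextuple mutant and 1823, 1610 and 2159 in the wild type (log2 change 0.68, adjusted p = 0.276). *COR15B*, a cryoprotective protein of the chloroplast stroma, had 97.9, 238 and 96.0 in the sextuple mutant, against 47.7, 28.8 and 63.8 in the wild type (log2 change 1.54, adjusted p = 0.355).

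*COR15A*, the dehydrin *ERD10*, the phosphatase *HAI1* and *NCED3*, the committed enzyme of abscisic acid synthesis, completed the higher group (log2 change 0.41 to 1.35). The dehydrin *LTI30* was the lower one, with 562, 597 and 617 in the sextuple mutant and 657, 786 and 977 in the wild type (log2 change -0.43, adjusted p = 0.793). Sextuple replicate 2 was the highest mutant library for *COR414-TM1*, *KIN2* and *COR15B*. Wild-type replicate 3 lay on the wild-type side for all 8, beside 79.2% of all genes at an unadjusted p under 0.05.

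Growth genes mostly had a log2 change above 0. Of 19 genes of cell expansion and auxin growth, all tested, 0 were called and 14 were above 0. Before adjustment 5 were higher and 0 lower (p under 0.05), beside 5.60% of all genes. The median was 0.35, but 0.20 without wild-type replicate 1 and 0.19 without wild-type replicate 4. Groups did not overlap for 2 of the 19, beside 10.7% of all genes. *PRE1*, a small helix-loop-helix protein that promotes elongation, had 475, 922 and 1084 in the sextuple mutant, against 437, 423 and 493 in the wild type (log2 change 0.79, adjusted p = 0.493). *IAA19*, a repressor of auxin response that auxin itself induces, had 204, 249 and 418 in the sextuple mutant and 41.7, 195 and 160 in the wild type (log2 change 1.33, adjusted p = 0.563). *SAUR21*, *SAUR22* and *IAA29* had log2 changes of 0.63, 0.54 and 0.53. *SAUR21* and its relatives lie side by side and are close in sequence, so reads could be split between them.

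The unfolded protein response of the endoplasmic reticulum raises chaperones when proteins fail to fold there. Of 18 genes tested, 0 were called and 16 had a log2 change above 0 (median 0.21). Before adjustment 3 were higher and 0 lower (p under 0.05), beside 5.60% of all genes. *CNX1*, the lectin chaperone calnexin, had 722, 409 and 567 in the sextuple mutant, against 387, 320 and 395 in the wild type (log2 change 0.59, adjusted p = 0.684). *ERDJ3B* had 537, 537 and 591 in the sextuple mutant and 467, 324 and 408 in the wild type (log2 change 0.49, adjusted p = 0.759). *BIP1*, the HSP70 of the same compartment, had 287, 284 and 258 in the sextuple mutant, against 261, 121 and 166 in the wild type (log2 change 0.66, adjusted p = 0.782). *BIP1* is nearly identical to *BIP2*, and reads can be split between them. The median in polysome RNA was 0.20. Of 59 chaperone genes tested, with some of these among them, 38 were above 0, with 4 higher and 0 lower before adjustment (p under 0.05) (median 0.10).

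Nuclear genes of the photosystems, the light-harvesting antenna and the Rubisco small subunit tended upward in monosome RNA. Of 56 tested, 0 were called, 43 had a log2 change above 0, and the median was 0.20. Before adjustment 6 were higher and 0 lower (p under 0.05), beside 5.60% of all genes. *PSAD-2* of photosystem I had 21987, 21577 and 24354 in the sextuple mutant, against 16578, 15105 and 16965 in the wild type (log2 change 0.48, adjusted p = 0.507). *PSAD-1* had 25747, 24346 and 29444 in the sextuple mutant and 20592, 17133 and 19933 in the wild type (log2 change 0.46, adjusted p = 0.607). In polysome RNA 16 of 56 were above 0, with a median of -0.15. Wild-type replicate 3 lay on the wild-type side for 3 of the 6, and with quantile normalisation the median was 0.08. Of 31 plastid-encoded genes tested, 12 were above 0, and none reached an unadjusted p under 0.05.

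The machinery of energy and protein synthesis lay near 0. Of all genes tested, 47.3% were above 0 and 5.60% reached an unadjusted p under 0.05. Of 138 genes listed as ribosomal proteins in the study's supplement, some of them of the plastid ribosome, 50 were above 0 (median -0.04), 2 were higher and 1 lower before adjustment (p under 0.05). The 2 with the smallest p were both plastid ribosomal proteins, AT4G01310 (log2 change 0.45, adjusted p = 0.723) and *PRPL11* (0.36, 0.79). Of 74 oxidative phosphorylation genes, 33 were above 0 (median -0.01) and none reached an unadjusted p under 0.05, the nearest being AT5G52840 and AT2G40765 (log2 changes 0.34 and 0.35). Of 58 mitochondrial ribosomal protein genes, 34 were above 0 (median 0.02), with *RPS19* at 0.46 and AT3G22450 at -2.83. AT3G22450 had 0.0561, 9.99 and 0 in the sextuple mutant, against 23.4, 10.9 and 13.5 in the wild type. All its sextuple values are under 10, so it was tested only through its wild-type values. The size of its change depends on the constant added before the logarithm. Of 245 pentatricopeptide repeat (PPR) genes, which act in organelle RNA editing, splicing and stability, 127 were above 0 (median 0.02). Before adjustment 4 of them were higher and 8 lower (p under 0.05), beside 5.60% of all genes. The PPR genes with the smallest p were AT2G28050 (log2 change 1.60, adjusted p = 0.428) and *EMB2279* (-0.89, 0.584).

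Of genes known to respond when mitochondria fail, 0 were called. Most of the alternative respiration and stimulon genes tested had a log2 change below 0 in monosome but not in polysome RNA. The members tested were not all the same in the 2 fractions, and the difference between the medians was not tested. Of all genes tested in monosome RNA, 47.3% were above 0 and 5.60% reached an unadjusted p under 0.05. Of 6 alternative respiration genes tested, all were below 0 (median -0.14, or -0.39 without sextuple replicate 1), whereas in polysome RNA 4 of 7 were above 0 (median 0.01). *NDA1*, an alternative NADH dehydrogenase, had 286, 270 and 458 in the sextuple mutant, against 503, 450 and 612 in the wild type (log2 change -0.65, adjusted p = 0.607), and wild-type replicate 3, at 409, fell inside the sextuple range. *NDA2* had a log2 change of -0.42. Of 14 genes of the mitochondrial dysfunction stimulon, 3 were above 0 (median -0.15), against 10 of 15 in polysome RNA (median 0.05). *HRG1* had 85.2, 47.6 and 42.4 in the sextuple mutant and 99.2, 128 and 112 in the wild type (log2 change -1.002, adjusted p = 0.687). *SOT12*, a sulfotransferase of the same list, had a log2 change of -0.66 (adjusted p = 0.729). Of 25 import and protease genes, 1 was lower before adjustment (AT3G07910, log2 change -0.45), with *OXA1*-like AT1G44890 next at -0.62 (adjusted p = 0.949), and the 10 mitochondrial-genome transcripts tested had no member at an unadjusted p under 0.05. Their median ran from -0.66 without sextuple replicate 2 to 0.62 without sextuple replicate 3, so no direction is given.

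**Figure D5:**
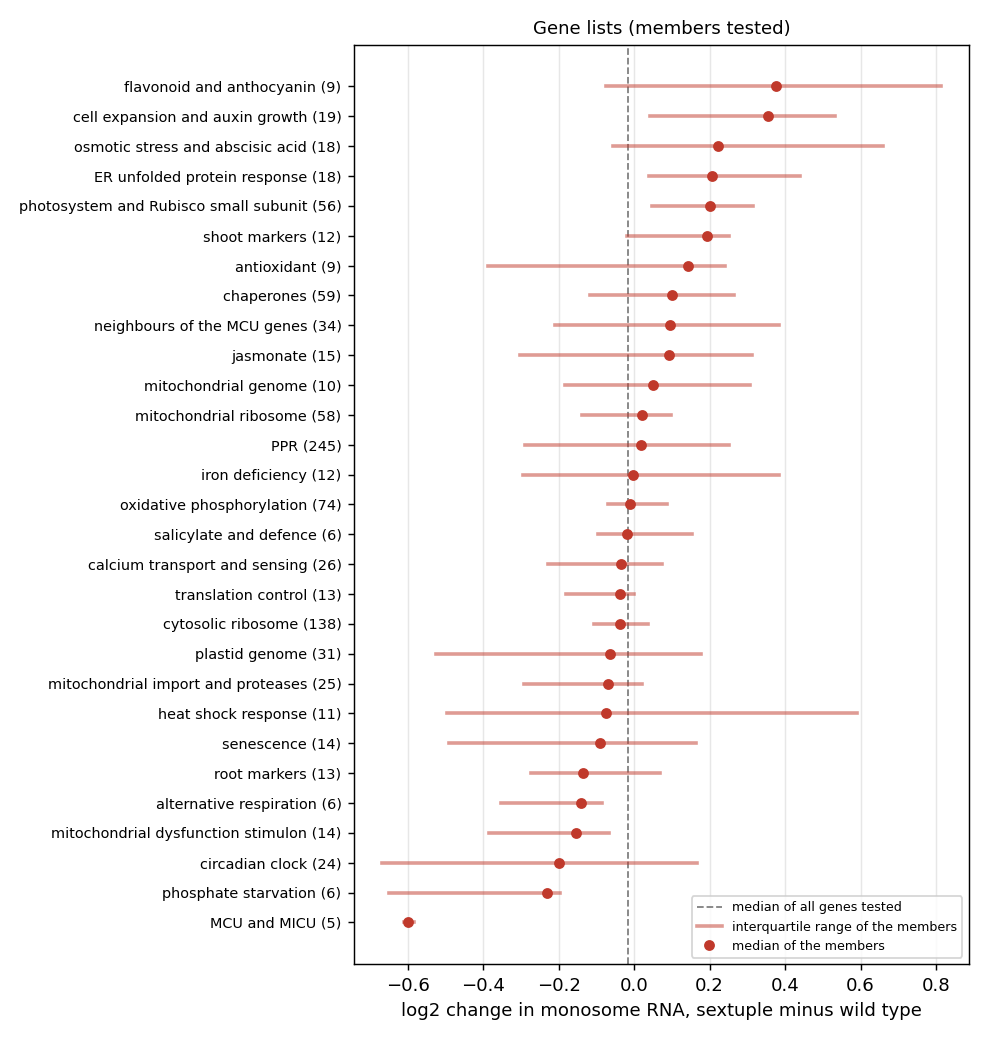
Median log2 change in monosome RNA, sextuple minus wild type, of the tested members of each gene list (points) with the interquartile range of the members (bars) and the number tested in brackets. The dashed line is the median over all genes, -0.02. The *MCU* and clock lists lie to its left at -0.60 and -0.20, and cell expansion at 0.35 and osmotic stress at 0.22 lie to its right.

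Among 26 genes of calcium transport and sensing, 11 were above 0 (median -0.03). Before adjustment 1 was lower (p under 0.05), beside 5.60% of all genes. That gene was *ECA3*, a calcium pump of the endomembrane system (log2 change -0.51, adjusted p = 0.88), and the calcium sensor *CBL3* followed (-0.26, 0.949). Of 13 translation control genes 2 were above 0 in monosome RNA (median -0.04, or -0.20 without sextuple replicate 1) and 9 in polysome RNA (median 0.05). *RAPTOR1B*, a subunit of the TOR kinase complex, had 191, 244 and 313 in the sextuple mutant, against 344, 447 and 281 in the wild type (log2 change -0.52, adjusted p = 0.878). *S6K1*, a kinase that TOR activates, had a log2 change of -0.24 with no overlap between the groups (adjusted p = 0.949).

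Genes listed at 0 throughout a group were counted apart. There were 1297 that were at 0 in all sextuple libraries with a value in the wild type, 16 of them with a wild-type mean of at least 10, and 674 at 0 in all wild-type libraries, 2 of them with a sextuple mean of at least 10. Fewer genes were clearly above 0 in every sextuple library (21631, 21944 and 21475) than in the wild-type libraries (22436, 22333 and 22437). The part of this difference in the counts of zeros was not tested. With depth unknown, a 0 says only that the gene is listed so. The 16 include *MCU5* and *FRO2* (above). The non-coding AT1G06957 was listed at 0 in the sextuple mutant, against 40.9, 18.15 and 41.6 in the wild type. AT1G47370, a protein with a TIR immune domain, was listed at 0 in the sextuple mutant and had 24.3, 21.3 and 15.4 in the wild type. The 2 genes at 0 in the wild type were AT4G17920, with 15.4, 21.6 and 0 in the sextuple mutant, and AT1G34480, with 4.61, 11.5 and 17.1.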

How the data were processed

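Monosome RNA was sequenced as poly(A) RNA libraries (TruSeq) from sucrose gradient fractions that were precipitated and pooled per sample. The deposited values are a signal per gene and library that the authors adjusted for library size within each table. The submitters' processing notes name Bowtie 0.12.2 and TAIR10, and the counter, the annotation, the use of strand and the normalization tool are not given in the sources used here. The values are not whole reads, so depth is unknown and no counting intervals were made. Without strand, reads of genes that overlap on opposite strands cannot be told apart, which touches 5 called genes (AT4G33500, AT5G24240, AT5G26270, *PRP4*, *UMAMIT33*). Log2 fold changes, p-values and scores of the authors' own comparisons in the same tables were not used, nor were 48 columns of other libraries.

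Genes that reached 10 in 3 or more of the 6 libraries were put on the log2(value + 1) scale. The model was a limma 3.58.1 fit (R 4.3.3; empirical Bayes with a variance trend). Tests were two-sided with Benjamini-Hochberg adjustment over all genes fitted and a threshold of 0.05. A fold change on this scale understates the change of low genes. The design had assumed counts and named limma for other units. Monosome and polysome values were fitted separately and, for their difference, as an interaction over 12 libraries. Wild-type replicate 3 and *2OX* lie in another table and were rescaled by the median ratio of the libraries held in both (log2 ratios 0.24 and 0.22). The fit was tested on simulated data. Named were the *MCU* genes, all called genes, the 5 next by p, and the 2 members of each list with the smallest p. Other list members were chosen after their values were seen. The comparison and all lists were chosen with earlier results of these data known. Lists of chaperones, import, respiration and ribosomes came from the study's supplement. Names, positions and upstream sequence came from the RefSeq annotation of TAIR10.1. Python 3.11.15, numpy 2.4.6, pandas 2.3.3 and matplotlib 3.10.9 were used. Alternatives changed the constant, filter, scaling, variance model, replicate block and libraries.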

Additional observations from a re-analysis of the deposited data

Results flagged for a closer look

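*PRK*, the phosphoribulokinase of the Calvin cycle and one of the shoot markers, had higher values in monosome RNA and lower values in polysome RNA of the sextuple mutant, with no overlap between the groups in either fraction. In monosome RNA it had 27663, 28282 and 30813 in the sextuple mutant, against 25080, 20851 and 25610 in the wild type (log2 change 0.28). In polysome RNA it had 32490, 38859 and 37824 in the sextuple mutant and 39704, 39952 and 38870 in the wild type (log2 change -0.12). The groups nearly met there, at 38859 and 38870. In monosome RNA 10.7% of all genes did not overlap between the groups. The difference between the changes, monosome minus polysome, was 0.41 and did not pass adjustment (limma adjusted p = 1). Wild-type replicate 3, which was not in the fit, had 29631 in monosome RNA, inside the sextuple range.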

How the results depend on the processing

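The 20 calls numbered 19 to 27 under other constants, filters, scalings, robust estimation and array weights. Without a variance trend there were 9, of which 4 were shared with the 20. Leaving out each library in turn gave 12 to 26. A fit with a fixed replicate block gave 93. It used only replicates 1 and 2 of each genotype, and so left out sextuple replicate 3 and wild-type replicate 4. With the number as a random block over all 6 libraries there were 26. Same-numbered sextuple and wild-type libraries deviated together at r of -0.0023 and 0.071. Same-numbered monosome and polysome libraries did so at 0.024 to 0.24, over 0.1 in 5 of 6. For each monosome library this was its highest r with a polysome library of its genotype. The main fits did not treat the numbers as pairs, so the main test of the difference leaves any sharing between fractions out of account. The difference between fractions gave 0 calls in all fits except with a random replicate block within genotype, which gave 1. Among the named genes, signs changed in AT2G01010, AT2G01020, ATMG00070, ATMG00665 and *PHT1-4*, none of them called. The log2 change of AT2G01010 was -0.060 with quantile normalisation. In the fits without 1 library it ran from -1.06 to 1.96, that of AT2G01020 from -1.13 to 1.24, of ATMG00070 from -0.17 to 0.90, of ATMG00665 from -0.95 to 0.0083 and of *PHT1-4* from -0.53 to 0.021. The causes were not tested. The planned count tests were not run, since whole reads could not be recovered. With depth unknown, genes of low value, such as *MCU4* and *MCU5*, could not be compared.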

Other observations

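Senescence genes had higher and lower values. Of 14 tested, none was called, and before adjustment 4 were lower and 1 higher (p under 0.05), beside 5.60% of all genes. *SAG21*, a late embryogenesis abundant protein of mitochondria, had 6003, 5118 and 7071 in the sextuple mutant, against 8415, 8206 and 12239 in the wild type (log2 change -0.65, limma adjusted p = 0.289). *ORE1*, a NAC factor that drives leaf senescence, had 241, 224 and 213 in the sextuple mutant and 372, 344 and 360 in the wild type (log2 change -0.66, adjusted p = 0.497). *XTH24* had a log2 change of -0.52 with no overlap (adjusted p = 0.584). *NYC1*, a chlorophyll b reductase, was the higher one, with 2690, 2886 and 2309 in the sextuple mutant, against 1769, 1812 and 1932 in the wild type (log2 change 0.51, adjusted p = 0.375). *SPX1*, a phosphate sensor protein, had 293, 258 and 181 in the sextuple mutant and 460, 383 and 408 in the wild type (log2 change -0.80, adjusted p = 0.373), and all 6 phosphate starvation genes tested were below 0.

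Other lists held few members past an unadjusted p under 0.05, which 5.60% of all genes reached. Of 9 antioxidant genes there were *FER1*, higher, and the catalase *CAT2*, with 3533, 3259 and 4010 in the sextuple mutant and 4392, 4963 and 4748 in the wild type (log2 change -0.39, adjusted p = 0.684). Of 15 jasmonate genes there was *LOX2*, a lipoxygenase of jasmonate synthesis, with 250, 294 and 235 in the sextuple mutant and 190, 131 and 178 in the wild type (log2 change 0.65, adjusted p = 0.713), and *JAZ6* followed at -0.44. Of 11 heat shock genes there were *HSFA7A* (-0.65, adjusted p = 0.782) and *HSP15.7* (1.76, adjusted p = 0.79), and for neither did wild-type replicate 3 lie on the wild-type side of the sextuple range. Of 12 shoot markers there was *CP12-2*, a regulator of the Calvin cycle (0.61, adjusted p = 0.366), and of 13 root markers *IRT1* and the root hair expansin *EXPA7* (0.83, adjusted p = 0.694). None of 9 flavonoid genes reached it, although 6 were above 0 (median 0.38, but 0.09 without wild-type replicate 2 and -0.07 with a filter at a value of 50), led by *MYB111* (0.92) and *5MAT* (1.12), nor did any of 6 salicylate genes (*ICS1* -0.51, *PR5* 0.79).

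The endoplasmic reticulum stress element (ERSE, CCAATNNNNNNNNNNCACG, either strand) was found in the 250 bases before 6 of 19 unfolded protein response genes, against 0.689% of all promoters. The 3 genes of that list at an unadjusted p under 0.05, *CNX1*, *ERDJ3B* and *BIP1*, were not among the 6. It is shown for *PDIL1-2* and *CRT1*, with the motif in capitals.
PDIL1-2, chr1:29126554-29126632, plus strand: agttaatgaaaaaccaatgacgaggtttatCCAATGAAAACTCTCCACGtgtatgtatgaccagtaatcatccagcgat
CRT1, chr1:21092729-21092807, minus strand: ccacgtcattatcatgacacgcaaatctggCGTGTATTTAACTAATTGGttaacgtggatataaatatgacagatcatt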
